A study of Mus musculus with 24 samples.

Results

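The transcripts described here are those of 9 genes of the Hoxa9-Meis1 self-renewal program, out of 20867 genes in the tables. They were chosen by name, through the transcript accession of each 3′UTR interval, by a rule that used no measured value. Earlier results of these data were known when the choice was made. They are the HOXA genes Hoxa5, Hoxa7, Hoxa9 and Hoxa10, the TALE homeobox genes Meis1 and Pbx3, and the transcription factor genes Myb, Sox4 and Mecom. Reads were found for 7 of the 9, while Hoxa10 and Mecom had 0 reads in all 24 libraries.

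HOXA9 is a homeodomain transcription factor that binds DNA together with TALE partners, MEIS1 and the PBX proteins among them. The group is known for holding hematopoietic progenitors in a self-renewing state, and joint overexpression of Hoxa9 and Meis1 is a classical way to transform mouse progenitors. MYB, SOX4 and MECOM (EVI1) are transcription factors known to act in the same leukemias.

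To ask whether loss of the terminal uridylyl transferases TUT4 and TUT7 changes transcript stability, the study performed SLAM-seq on Meis1/Hoxa9 preleukemic mouse cells. These were c-Kit+ fetal liver cells transduced with retroviruses encoding Meis1 and Hoxa9 and replated serially. All cells carried floxed Tut4 and Tut7 alleles (Tut4 fl/fl;Tut7 fl/fl). The cDKO cells also carried Vav-iCre, which is active across hematopoietic cells, and control cells lacked it. All were grown with SCF, IL-6 and IL-3, labelled with 2.9 µM 4-thiouridine for 12 h and collected at 0, 60, 180 and 540 min after the label was withdrawn. After alkylation the label appears in the reads as a T-to-C conversion. The conversion rate is the percentage of covered T positions that carry one, and it drops as labelled RNA is lost. Each of the 8 groups held 3 replicates, and chase time coincides with the batch named in the labels, so these cannot be told apart. Reads in 3′UTR intervals numbered 4380235 to 7041311 per library. The study's methods state that replicates came from separate animals or embryos, which the labels do not tie to libraries, and the p-values measure the spread between these libraries. At 0 min the fitted log2 difference of cDKO over control was −1.75 ± 0.22 (SE) for Tut4 (adjusted p = 0.00118) and −1.08 ± 0.17 for Tut7 (adjusted p = 0.00388), by edgeR's quasi-likelihood test with Benjamini-Hochberg adjustment.

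Whether the retroviral Hoxa9 and Meis1 transcripts carry the native 3′UTR is not given in the sources used here. Reads from the transgenes and from the native genes cannot be told apart where they share that sequence, and a transgene without it was not counted. In mm10, all 9 genes were counted on the minus strand. The 4 HOXA intervals lie within chromosome 6, with Hoxa5 at 52201754 to 52202580, Hoxa7 at 52215623 to 52215716, Hoxa9 at 52223097 to 52224243 and Hoxa10 at 52231197 to 52232505. The Hoxa7 interval spans only 94 bases. The main Meis1 interval lies on chromosome 11 at 18880428 to 18881922 and that of Pbx3 on chromosome 2 at 34171457 to 34172973. Myb was counted on chromosome 10 at 21124930 to 21126172 and Sox4 on chromosome 13 at 28950716 to 28951698. Mecom was counted in 2 intervals on chromosome 3, at 29951296 to 29952715 and at 30236569 to 30237232. None overlapped an interval of another gene.

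A pair of microRNAs is shown because one is encoded inside this cluster and the other is a textbook substrate of TUT4 and TUT7 in its precursor form. The miR-196b gene lies between Hoxa9 and Hoxa10, its mature 5p arm at chr6:52230129-52230150 on the minus strand of GRCm38.p6, and microRNAs of this family are known regulators of HOX transcripts. For the mature let-7a-5p, the first locus listed is given, chr13:48538239-48538260, also on the minus strand. Both sequences are from RefSeq, with the seed (bases 2 to 8) in capitals:
mmu-miR-196b-5p: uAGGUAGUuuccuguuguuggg
mmu-let-7a-5p: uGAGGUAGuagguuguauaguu

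The seeds differ by a shift of 1 base. In the longest GENCODE 3′UTR of each gene, the complement of the miR-196b seed, ACTACCT, was found in 4 of the 9 genes. Of 20745 genes with such a 3′UTR, 8.14% held this word. The sites are shown 5′ to 3′ on the transcript strand with the match in capitals. Whether they bear on the abundance values below was not tested. Positions count from the first base after the stop codon.
Hoxa9 (position 337 of 1144): aaaggaaagaaaACTACCTtttt
Hoxa5 (position 456 of 827): atttttattcaaACTACCTatat
Hoxa7 (position 537 of 1446): cacagccaaaatACTACCTagca
Hoxa7 (position 574): aggcactcccaaACTACCTatgg
Hoxa7 (position 706): accatgatcaatACTACCTacta
Hoxa7 (position 727): tactagccctaaACTACCTattg
Pbx3 (position 1007 of 1560): gagcgctcacttACTACCTctga

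Hoxa7 held 4 matches and the other 3 genes held 1 each. The complement of the let-7 seed, CTACCTC, was found in 1 of the 9 genes, Pbx3, where it overlaps the miR-196b match, and in 12.0% of all genes. Hoxa10, Meis1, Myb, Sox4 and Mecom held neither word. A match is a description of these letters, and microRNA levels were not measured in these libraries.

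Hoxa9 and Pbx3 were higher in cDKO than in control at every chase time, and Myb and Sox4 were not called at any. These 4 genes were the only members with enough reads to be tested by edgeR's quasi-likelihood test. The 2 called of 4 compare with 13.4% of 10186 genes called at 0 min, 20.2% at 60 min, 18.9% at 180 min and 19.2% at 540 min. For calls in the higher direction alone, the shares of all genes were 6.72%, 9.97%, 9.1% and 8.89% in the same order.

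Hoxa9, the transforming homeobox gene itself, had 2801, 2599 and 2446 reads per 1000000 3′UTR reads (CPM) in the 3 control libraries of 0 min. The cDKO libraries of 0 min had 4592, 5044 and 6543 CPM. All cDKO values lay above all control values, and replicate 3 was the highest. The fitted log2 difference at 0 min was 1.06 ± 0.13 (SE), with an adjusted p of 0.00126.

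At 60 min Hoxa9 stood at 2351, 2294 and 2495 CPM in control and at 4577, 4197 and 5564 CPM in cDKO. At 180 min it stood at 2770, 2561 and 2369 CPM in control and at 4097, 3626 and 4414 CPM in cDKO. At 540 min it stood at 1946, 2248 and 2115 CPM in control and at 3377, 3459 and 4399 CPM in cDKO. The genotypes never overlapped, and cDKO replicate 3 was the highest library at each time. How many of all genes had no overlap was not counted, here or for the other members. The log2 differences were 0.99 ± 0.09 (adjusted p = 9.2e-05), 0.64 ± 0.09 (adjusted p = 0.000707) and 0.83 ± 0.10 (adjusted p = 0.000715) at 60, 180 and 540 min, by the same edgeR test. Without cDKO replicate 3 the difference at 0 min was 0.90.

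Ordered by mean CPM, the lowest Hoxa9 group was control at 540 min (2103 ± 151, SD, n = 3), and its range lay below that of the next group, control at 60 min. The control groups of 60, 180 and 0 min overlapped their neighbours. A gap followed, and then cDKO at 540, 180, 60 and 0 min, each overlapping the next, up to 5393 ± 1021 CPM at 0 min (SD, n = 3). Hoxa9 thus stood lower at 540 than at 0 min in both genotypes. In control the log2 change from 0 to 540 min was −0.35 ± 0.06 (edgeR adjusted p = 0.000767), where 16.2% of all genes were called. In cDKO it was −0.56 ± 0.16 with an adjusted p of 0.293, and 0.117% of all genes were called. Blocked by replicate number, the cDKO change was −0.56 with an adjusted p of 0.00758, and same-numbered cDKO libraries of 0 and 540 min deviated together. The change did not differ between genotypes past the threshold (−0.21 ± 0.18, edgeR adjusted p = 0.989).

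Reads of Hoxa9 covered few T positions. There were 8.12 T positions per read, against a median of 21.5 over 9559 genes with at least 500 reads, which placed Hoxa9 at the 1.36 percentile. If the covered stretch had the T content of the whole interval, 32.8%, this would be 24.8 bases per read inside the interval. The median on the same assumption was 72.6 bases, and the T content of the covered stretch itself was not measured. Sox4 stood apart in the same way, with 7.59 T positions and 37.7 bases per read. Myb had 20.8 T positions and 56.7 bases per read, the latter at the 10.7 percentile, and Pbx3 had 25.5 T positions and 84.1 bases per read, both near the 80.0 percentile. A read counts for a 3′UTR once part of it lies there, and whether the Hoxa9 and Sox4 reads extended past their intervals was not tested.

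**Figure D1:**
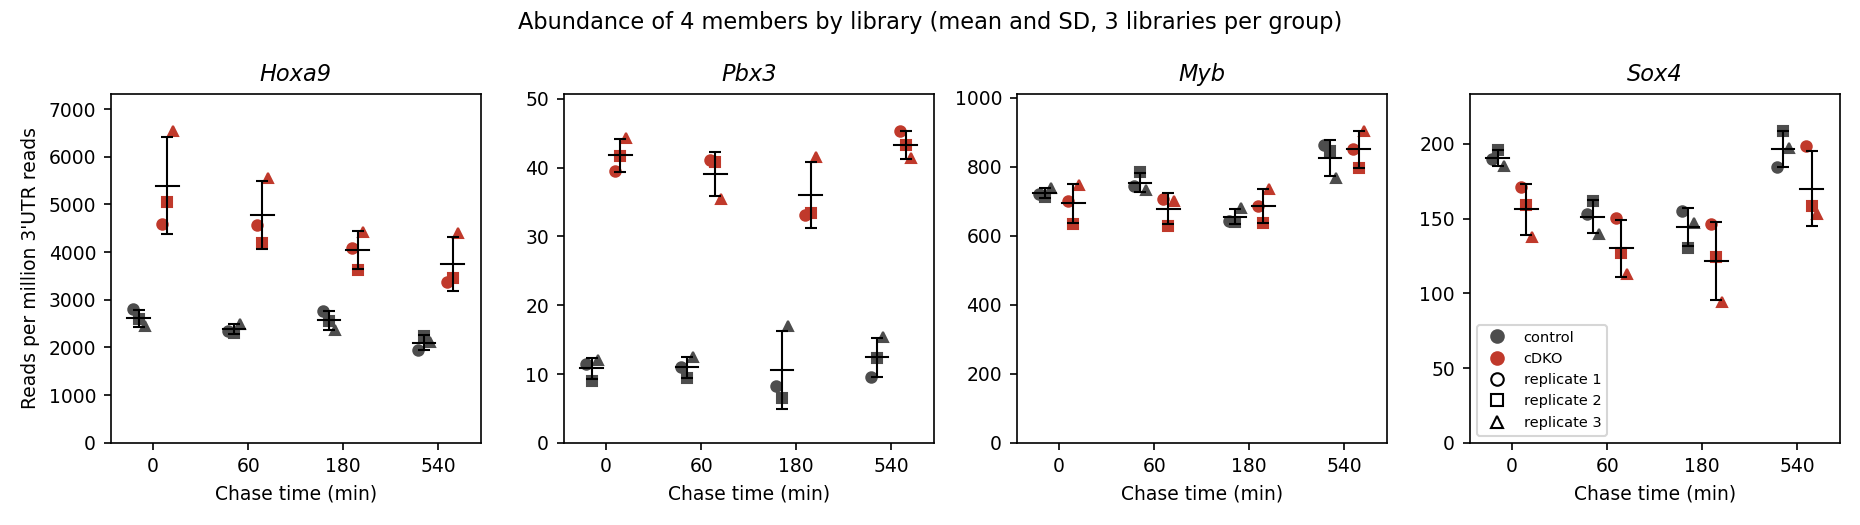
CPM of 3′UTR reads of Hoxa9, Pbx3, Myb and Sox4 (y axes, linear from 0) against chase time in minutes. Each point is a library, grey for control and red for cDKO, with symbols for replicate numbers and bars for the mean and SD of 3 libraries. The red points lie above the grey ones throughout for Hoxa9 and Pbx3, and mix with them for Myb.

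Pbx3, a TALE partner of HOXA9, had the larger log2 difference of both called genes. At 0 min it had 59, 48 and 79 reads in control and 173, 236 and 202 reads in cDKO, or 11.4, 9.02 and 12.0 CPM against 39.5, 41.6 and 44.3 CPM. At 60 min it stood at 11.0, 9.41 and 12.5 CPM in control and at 41.0, 40.8 and 35.4 CPM in cDKO. The lowest cDKO library stood well above the highest control library at both times.

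At 180 min Pbx3 had 8.22, 6.55 and 17.0 CPM in control and 33.2, 33.4 and 41.5 CPM in cDKO. At 540 min it had 9.60, 12.4 and 15.3 CPM in control and 45.3, 43.2 and 41.3 CPM in cDKO. The groups stayed apart, and control replicate 3 was the highest control library at each time. The log2 differences from 0 to 540 min were 1.96 ± 0.18 (adjusted p = 0.000221), 1.81 ± 0.17 (adjusted p = 8.6e-05), 1.74 ± 0.31 (adjusted p = 0.00302) and 1.78 ± 0.19 (adjusted p = 0.000289) by the edgeR test. Over the chase, Pbx3 moved by 0.17 ± 0.25 in control (adjusted p = 0.697) and by 0.02 ± 0.13 in cDKO (adjusted p = 0.985) on the log2 scale. Group means ranged from 10.6 to 12.4 CPM in control and from 36.0 to 43.3 CPM in cDKO, and within a genotype every group overlapped another.

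Myb encodes a transcription factor of immature blood cells. It had 719, 713 and 739 CPM in control and 701, 634 and 747 CPM in cDKO at 0 min. At 60 min it had 744, 785 and 732 CPM in control and 707, 627 and 701 CPM in cDKO, the only time at which the genotypes did not overlap. At 180 min it had 644, 640 and 681 CPM in control and 687, 636 and 736 CPM in cDKO. The groups of 540 min had the highest mean in both genotypes. They stood at 863, 845 and 767 CPM in control and at 852, 796 and 903 CPM in cDKO.

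The log2 differences of Myb were −0.05 ± 0.08 (adjusted p = 0.773), −0.17 ± 0.07 (adjusted p = 0.107), 0.05 ± 0.08 (adjusted p = 0.709) and 0.04 ± 0.07 (adjusted p = 0.776) at 0, 60, 180 and 540 min by edgeR. Without cDKO replicate 3, Myb passed the threshold at 60 min (−0.20, adjusted p = 0.0430). From 0 to 540 min it changed by 0.15 ± 0.06 in control (adjusted p = 0.077) and by 0.26 ± 0.10 in cDKO (adjusted p = 0.379).

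Sox4 encodes an SRY-related HMG-box transcription factor. It had 189.5, 196 and 185 CPM in control and 171, 159 and 138 CPM in cDKO at 0 min. At 60 min it had 153, 161 and 140 CPM in control and 151, 127 and 113 CPM in cDKO. At 180 min it had 155, 130 and 147 CPM in control and 147, 124 and 94.3 CPM in cDKO. The group means were lower in cDKO at each time, and the libraries overlapped at all times but 0 min. At 540 min Sox4 had 184, 209 and 197 CPM in control and 199, 158 and 153 CPM in cDKO.

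The log2 differences of Sox4 were −0.27 ± 0.11 (adjusted p = 0.135), −0.24 ± 0.11 (adjusted p = 0.161), −0.26 ± 0.15 (adjusted p = 0.251) and −0.22 ± 0.11 (adjusted p = 0.209) by edgeR. None passed the threshold. cDKO replicate 3 had the lowest Sox4 level at each time, where it had the highest Hoxa9 level. The cDKO group of 180 min was the lowest (122 ± 26.2 CPM, SD, n = 3) and control at 540 min the highest (197 ± 12.2 CPM, SD, n = 3).

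**Figure D2:**
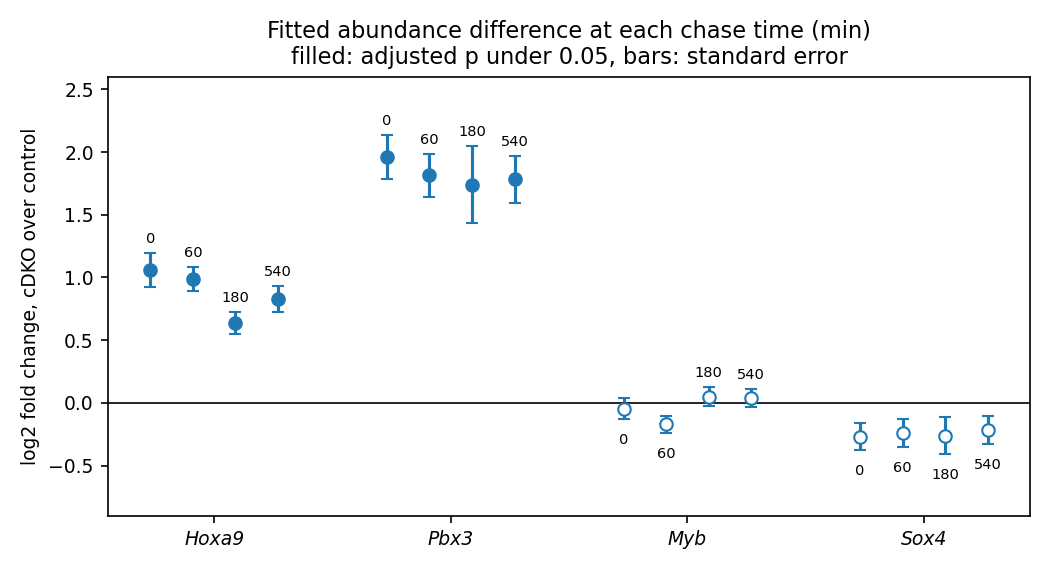
Fitted log2 difference of cDKO over control (y axis) for the 4 tested genes (x axis) at 0, 60, 180 and 540 min, with standard errors. Filled points have an adjusted p under 0.05. All points of Hoxa9 (0.64 to 1.06) and Pbx3 (1.74 to 1.96) are filled and none of Myb or Sox4.

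Meis1, the partner whose retroviral copy transformed these cells, had 0 reads in all 12 control libraries. Over these libraries, 0 reads allow a level of up to 0.0444 CPM. In cDKO it had 6, 7 and 8 reads at 0 min, 5, 1 and 12 at 60 min, 12, 4 and 28 at 180 min and 6, 0 and 18 at 540 min. Reads were found in 11 of 12 cDKO libraries, and 66 of the 107 reads came from replicate 3. Pooled over the chase, Meis1 was at least 39.2-fold higher in cDKO, against a floor of 3 reads over the 12 control libraries, and at least 22.7-fold higher without cDKO replicate 3. This bound covers counting error only. Meis1 did not pass the filter on low counts. In a fit of all genes with a read, without that filter, its edgeR adjusted p was 0.0305 at 0 min, 0.054 at 60 min, 0.0056 at 180 min and 0.066 at 540 min, so it passed at 0 and 180 min. With the filter, which Meis1 then passed only through cDKO libraries, and any 1 control library left out, it was 0.0528 to 0.0543 at 180 min.

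Hoxa5, a HOXA gene at the 3′ end of the cluster, showed reads in both genotypes. Control libraries had 5, 0 and 0 reads at 0 min, 1, 1 and 0 at 60 min, 0, 1 and 2 at 180 min and 0, 0 and 0 at 540 min. The cDKO libraries had 2, 1 and 21 reads at 0 min, 12, 2 and 13 at 60 min, 12, 4 and 36 at 180 min and 6, 1 and 43 at 540 min. The genotypes overlapped at 0 min and did not at later times. Of 153 cDKO reads, 113 came from replicate 3. Pooled, cDKO was 16.8-fold higher (exact 95% binomial interval 8.90 to 35.8), and 6.64-fold higher without replicate 3 (3.26 to 14.9). These intervals cover counting error only, and the cDKO replicates stood at 1.65, 0.376 and 5.44 CPM over the chase. Without the filter on low counts, the edgeR adjusted p of Hoxa5 was 0.351 at 0 min, 0.0548 at 60 min, 0.0149 at 180 min and 0.0255 at 540 min, so it passed at the later 2 times. With the filter, which Hoxa5 then passed only through cDKO libraries, and any 1 control library left out, it was 0.0691 to 0.0983 at 180 min.

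Hoxa7 had 0 reads in control and 10 reads in 3 cDKO libraries, 6 of them in replicate 3 at 0 min. This gives at least a 3.66-fold higher pooled level, and without cDKO replicate 3 only 3 reads remained. Its counted interval was short, as given above, against a longest GENCODE 3′UTR of 1446 bases. For Hoxa10 and Mecom, 0 reads in 12 libraries allow a level of up to 0.0444 CPM in control and 0.0488 CPM in cDKO. Their transcripts were not detectable in the counted intervals at this depth.

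**Figure D3:**
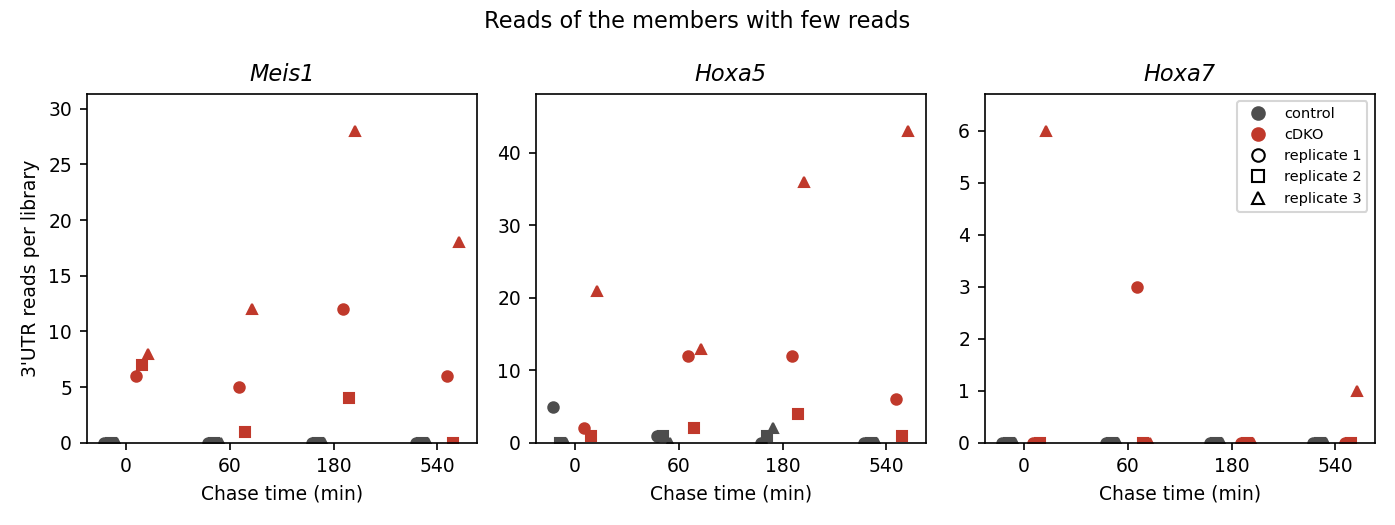
Reads per library (y axes, linear) of Meis1, Hoxa5 and Hoxa7 against chase time in minutes, grey for control and red for cDKO, with a symbol for each replicate number. Meis1 and Hoxa7 are at 0 in every control library, and triangles, cDKO replicate 3, hold most of the reads.

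Markers of blood lineages differed between the genotypes too. The summed level of 9 erythroid markers was 0.372 to 3.07 CPM in control and 1307 to 2091 CPM in cDKO. Most of it was the globin gene Hbb-bt, the only 1 of the 9 with enough reads to be tested at 0 min, with Alas2 and Epor at 0 in both and Gata1, Hbb-bs and Hba-a2 among those at 0 in control. The summed level of 9 neutrophil markers was 6806 to 7919 CPM in control and 1893 to 2906 CPM in cDKO, with all 6 tested at 0 min called lower. The sum of 6 progenitor markers was 1117 to 1502 CPM in control and 526 to 862 CPM in cDKO, but 0 of 6 were called at 0 min by edgeR and 3 of the 6 fitted differences were above 0, as for Cd34 (0.50 ± 0.30), against Mpo at −2.92 ± 1.03. At an unadjusted p under 0.05, 3 of the 6 were lower at 0 min, beside 2702 of 10186 genes in either direction. Of the same 6, edgeR called 2 lower at 60 min, 2 at 180 min and 1 at 540 min, and none higher. Over all genes, 13.4% were called at 0 min and 20.2%, 18.9% and 19.2% at the later times. Mast cell and basophil markers summed to 14.0 to 27.3 CPM in control and 83.2 to 180 CPM in cDKO, with Fcer1a at 0 in both and Cpa3 and Prss34 at 0 in control. The summed level of monocyte and macrophage markers overlapped (199 to 357 CPM against 193 to 304 CPM), although 5 of the 6 were tested at 0 min and all 5 were called, 4 lower, such as F13a1 (−10.32 ± 0.34), and Adgre1 higher (3.35 ± 0.21). Megakaryocyte markers summed to 2.59 to 9.68 CPM in control and 7.32 to 23.7 CPM in cDKO. Stromal markers summed to at most 1.59 CPM in any library, with Col3a1 at 0, and lymphoid markers to at most 0.529 CPM, with Cd79a and Cd3e at 0. The part of these lineages in the Hoxa9, Pbx3, Meis1 and Hoxa5 values was not tested. In bulk RNA, fewer cells of a type and less RNA per cell cannot be told apart.

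Other genes around the program were read from lists of the HOX, TALE, target and progenitor genes. Of 7 other HOXA genes 6 were in the tables, and of 28 genes of the other HOX clusters 26, and none had enough reads to be tested. Of 9 other TALE genes, 5 were tested and 0 called at 0 min by edgeR. Of 15 genes known as HOXA9 or MEIS1 targets, 13 were tested at 0 min, with 3 higher, 1 lower and a median log2 difference of 0.21, beside a median of 0.01 and 13.4% called (6.72% higher) over all genes. The lowest p among the higher ones was that of Bcl2, the anti-apoptotic gene (1.97 ± 0.16, adjusted p = 0.000132). The lower one was Id2, an inhibitor of helix-loop-helix factors (−1.50 ± 0.42, adjusted p = 0.0456), a call lost without any 1 control library or without cDKO replicate 1.

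Of 17 stem and progenitor transcription factors and regulators, 15 were tested at 0 min, with 5 higher and 2 lower and a median of 0.03, against the same 13.4% of all genes. Ikzf2, which encodes the zinc finger protein Helios, had the lowest p among those higher (5.83 ± 0.37, adjusted p = 4.4e-05 by edgeR). Runx1, which encodes a core factor of definitive hematopoiesis, had the lowest p among those lower (−0.92 ± 0.10, adjusted p = 0.000522). Of 9 relatives and cofactors of MYB, SOX4 and MECOM, 5 were tested and 1 was lower, beside 13.4% of all genes called, the MECOM relative Prdm16 (−2.22 ± 0.41, adjusted p = 0.00787).

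Genes with the most similar abundance pattern were found by Pearson's r of log2(CPM + 0.5) over the 24 libraries among 10845 other genes. Hoxa9 was most like Pclaf (r = 0.96) and Csta2 (r = 0.95). Within the 12 cDKO libraries alone, r with Pclaf was 0.95, and within the 12 control libraries 0.85. Csta2 stood at 0 CPM in control, and its r with Hoxa9 within cDKO was 0.78. For Pbx3, r with Hbb-bt, an adult beta globin gene, was 0.97 over all libraries, 0.13 within cDKO and 0.68 within control. The r over all libraries holds the genotype difference, as Hbb-bt stood at 0.538 CPM in control and at 1630 CPM in cDKO on average. The r within control was found at that low level of Hbb-bt.

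Myb was most like Pagr1a (r = 0.83) and Dlgap4 (r = 0.83), and Sox4 was most like Trim25 (r = 0.88) and Zeb2 (r = 0.86). Meis1 was most like Gm20741 (r = 0.96) and Slpi (r = 0.95), and Hoxa5 was most like Slc16a12 (r = 0.93) and Nell1 (r = 0.93). Meis1 and Hoxa5 entered this ranking only through cDKO reads. Meis1, Gm20741 and Nell1 stood at 0 CPM in control, so these r values hold the genotype difference. Within cDKO alone, r was 0.87 for Gm20741, 0.87 for Slpi, 0.88 for Slc16a12 and 0.94 for Nell1. The libraries share genotype, batch and replicate number, so these values only describe the pattern.

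Conversion decay was compared next, to ask whether labelled transcripts of the program were lost more slowly in cDKO. In the edgeR fit without a replicate block, none of the 4 tested genes had a decay difference past the threshold. In all 4, cDKO kept a larger part of the 0 min rate at 540 min. Labelling itself differed, with a conversion rate over the whole library at 0 min of 1.64 ± 0.03% in control against 0.736 ± 0.169% in cDKO (SD, n = 3). The lower cDKO rates leave fewer conversions and place late values closer to the background of sequencing errors, which was not measured here.

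At 0 min the conversion rate of Hoxa9 was 1.80, 1.84 and 1.81% in control and 0.924, 0.968 and 0.679% in cDKO. At 60 min it was 1.59, 1.63 and 1.58% in control and 0.886, 0.905 and 0.712% in cDKO. At 180 min it was 1.21, 1.35 and 1.17% in control and 0.624, 0.687 and 0.541% in cDKO. At all 3 times each cDKO value lay below each control value, as for the library as a whole. At 540 min the rate was 0.331, 0.388 and 0.361% in control and 0.281, 0.317 and 0.278% in cDKO, still without overlap. Hoxa9 rates at 0 min rested on 113907 to 239693 covered T positions per library.

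The Hoxa9 rate at 540 min was 19.9% of its 0 min mean in control and 34.1% in cDKO, beside 19.2% and 25.4% for the whole library. The fitted half-life of Hoxa9 was 272 min in control against 372 min in cDKO. Fitted to each replicate number alone, the control values were 263, 295 and 259 min, and the cDKO values 330, 353 and 475 min. These fits join libraries by number, although same-numbered control libraries of 0 and 540 min did not deviate together. The genotypes did not overlap, and cDKO replicate 3 was the longest. How many of all genes had no overlap was not counted, and 68.7% of 3712 genes had the longer half-life in cDKO. The genotype by hour difference in the log2 conversion rate was 0.08 ± 0.03 per hour (SE), with an edgeR adjusted p of 0.11. DESeq2 gave an adjusted p of 0.0317 for Hoxa9 in the same comparison. With a block for replicate number within genotype, the edgeR adjusted p of Hoxa9 was 0.0186, and 59 of 9207 genes were called. The difference fell to 0.04 with the library-wide rate in the offset (edgeR adjusted p = 0.256), and to 0.01 ± 0.08 without the 540 min libraries.

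Pbx3 rates were less precise, with 827 to 6604 covered T positions per library. They were 1.57, 2.63 and 1.49% in control and 1.17, 1.17 and 0.886% in cDKO at 0 min, and 2.0, 2.50 and 1.32% against 0.823, 1.15 and 0.715% at 60 min. At 180 min they were 1.21, 0.242 and 0.293% in control and 0.420, 0.376 and 0.329% in cDKO. The control libraries of 180 min differed from each other by several fold. At 540 min control had 0, 2 and 0 conversions, and the libraries with 0 allow a rate of up to 0.242% and 0.114%, respectively. The cDKO libraries of 540 min had 18, 6 and 12 conversions, or 0.273, 0.0965 and 0.203%.

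The fitted Pbx3 half-life was 148 min in control against 153 min in cDKO. Control replicates spread from 104 to 278 min and overlapped the cDKO replicates, at 142 to 165 min. The SD of the normalised 0 min rate was 0.336 in control, above the bound of 0.3 that the study applied, so Pbx3 lies outside the half-life set. The genotype by hour difference was 0.37 ± 0.11 per hour with an edgeR adjusted p of 0.104, and DESeq2 gave an adjusted p of 0.0462. Without the 540 min libraries it was 0.08 ± 0.22.

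Myb had the shortest fitted control half-life of the 4, with replicates that overlapped those of Sox4 and Pbx3. Its rate was 1.95, 2.02 and 1.95% in control and 0.979, 0.964 and 0.701% in cDKO at 0 min, and 1.70, 1.86 and 1.57% against 0.856, 0.856 and 0.585% at 60 min. At 180 min it was 0.585, 0.669 and 0.549% in control and 0.284, 0.392 and 0.270% in cDKO. At 540 min it was 0.111, 0.113 and 0.0970% in control and 0.0777, 0.0819 and 0.0785% in cDKO. The 540 min mean was 5.43% of the 0 min mean in control and 9.01% in cDKO. The half-life was 132 min in control (replicates 132, 144 and 120 min) and 148 min in cDKO (replicates 132, 161 and 153 min), and the genotypes overlapped. The genotype by hour difference was 0.08 ± 0.03 per hour (edgeR adjusted p = 0.199), and 0.03 ± 0.04 after subtraction of a 0.05% background.

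Sox4 was fitted in the same way. Its rate was 1.95, 2.10 and 2.36% in control and 1.23, 1.13 and 0.973% in cDKO at 0 min, and 1.77, 1.63 and 1.80% against 1.14, 1.16 and 0.867% at 60 min. At 180 min it was 0.755, 0.709 and 0.579% in control and 0.660, 0.538 and 0.489% in cDKO. The fall after 180 min was smaller than before. At 540 min it was 0.267, 0.494 and 0.622% in control and 0.478, 0.355 and 0.367% in cDKO, above the library-wide rate in all libraries but control replicate 1.

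The Sox4 half-life was 147 min in control (replicates 168, 150 and 123 min) and 291 min in cDKO (replicates 316, 270 and 287 min), a ratio of 1.98. The genotypes did not overlap. As for Hoxa9, how many of all genes had no overlap was not counted. The genotype by hour difference was 0.07 ± 0.05 per hour with an edgeR adjusted p of 0.451. A straight line through the log rates, with its intercept left free, brought the log2 half-life ratio from 0.99 to 0.58. It gave 0.88 for Pbx3, where it left out control replicates 1 and 3 of 540 min, whose rates were 0. The genotype by hour difference of Sox4 was 0.22 ± 0.14 without the 540 min libraries and 0.03 ± 0.05 with the library-wide rate in the offset, neither past the threshold. Sox4 kept 21.6% of its 0 min rate at 540 min in control and 36.0% in cDKO.

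**Figure D4:**
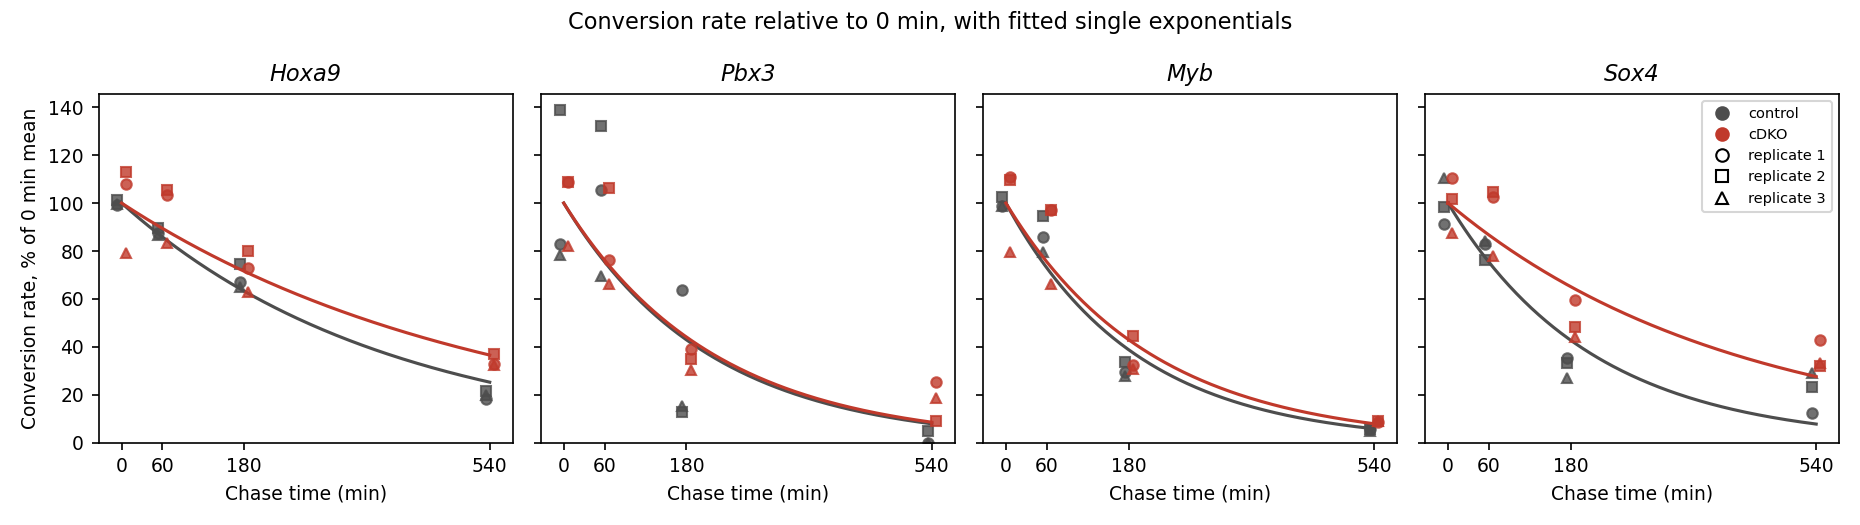
Conversion rate of each library as a percentage of the 0 min mean of its genotype (y axis) against chase time in minutes, grey for control and red for cDKO, with fitted single exponentials as lines. The lines lie apart for Hoxa9 (272 and 372 min) and Sox4 (147 and 291 min) and almost coincide for Pbx3.

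Over the 3712 genes that passed the bounds at 0 min, half-lives had a median of 224 min in control against 251 min in cDKO, and 68.7% of genes had the longer half-life in cDKO. The log2 half-life ratio had a median of 0.19 over these genes. It was 0.45 for Hoxa9, 0.05 for Pbx3, 0.16 for Myb and 0.99 for Sox4, at the 72.2, 35.6, 47.3 and 91.0 percentile. In the test of the genotype by hour difference, 0 of 4 members and 0.13% of 9207 genes were called by edgeR. An unadjusted p under 0.05 was found for 3 of the 4 and for 1585 of the 9207 genes. DESeq2 called 2 of the 4 and 207 of the 9207 genes. The median difference over all these genes was 0.07 per hour by edgeR.

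Relative to the conversion rate of its own library at 0 min, none of the 4 genes differed between genotypes. The log2 differences were 0.09 ± 0.06 for Hoxa9 (adjusted p = 0.771), 0.39 ± 0.29 for Pbx3 (adjusted p = 0.817), 0.00 ± 0.07 for Myb (adjusted p = 0.995) and 0.20 ± 0.19 for Sox4 (adjusted p = 0.881) by edgeR, with 0.318% of all genes called. None had an unadjusted p under 0.05. The few reads of the low members held few conversions. At 0 min in cDKO, Meis1 had 5, 0 and 2 conversions in 167, 23 and 221 T positions. Over the chase, Hoxa5 had 3 conversions in 888 T positions of cDKO replicate 1, 2 in 219 of replicate 2 and 0 in 3034 of replicate 3, the last of which allows a rate of up to 0.0989%. Hoxa7 had none, and no decay could be fitted for these 3 genes.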

How the data were processed

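SLAM-seq libraries of control and cDKO cells (8 groups of 3) were analysed from the tables the authors made with SlamDunk (version 0.4.3), counted over 3′UTR intervals of mm10. Aligner settings and variant masking are not given in the sources used here. The deposited columns hold counts of reads, of conversions and of covered T positions, a conversion rate as a fraction, and CPM. The deposited CPM served only to recover filtered reads (9552906 to 13882269 per library). CPM here is per 1000000 3′UTR reads. Of 39419 lines, 99.2% matched a RefSeq symbol, and the longest of overlapping intervals of a gene was kept.

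The members and lists were chosen with earlier results of these data known. All 9 members are reported. From the other lists the gene with the lowest p in each direction at 0 min is named, and for each member that passed the filter over 24 libraries the 2 most correlated genes, of which 1 for Pbx3 is not reported here. Tests were run on all genes with edgeR 4.0.16 (R 4.3.3, TMM, filterByExpr, quasi-likelihood, adjusted p under 0.05 called), after a check on simulated data. Conversions were modelled against T coverage (log offset), for genes with coverage of at least 100 per library and 50 conversions in all. Half-lives are least-squares single exponentials bounded at 1 and 10000 min and have no test. DESeq2 1.42.0, other filters, offsets and left-out libraries were alternatives, with the pooled folds without each cDKO replicate added after seeing the data. Without molecular identifiers, intervals and the floor of 3 reads cover counting error only. Same-numbered libraries of both genotypes did not deviate together (r from −0.05 to 0.05). Those of 0 and 540 min did in cDKO (r = 0.26, 0.54 and 0.62), with the pairing taken from this check, and did not in control. MicroRNA and 3′UTR letters came from RefSeq (GRCm38.p6) and GENCODE transcripts of another build, used without coordinates.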

Additional observations from a re-analysis of the deposited data

How the results depend on the processing

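The counts of 2 members called at 0 and 60 min stayed within 1.5 times, and Hoxa9 and Pbx3 kept direction and call at all 4 times under every alternative run. At 180 min 4 members were called without the filter on low counts and also without cDKO replicate 2 (range over left-out libraries 2 to 4). Over all genes, 2126 of 13380 and 2000 of 10370 were called in these fits. At 540 min 4 were called in a fit of all 24 libraries, beside 2322 of 10846 genes. The added genes were Meis1 and Hoxa5. Where the filter was used, both passed it only through the cDKO libraries, in which they are high. For the change from 0 to 540 min, 2 members were called in control without the filter, and 1 in cDKO by DESeq2 and 1 with the replicate block (Hoxa9, −0.56), in place of 0. Over all genes, 1946 of 13026, 123 of 10235 and 128 of 10235 were called in these fits. For the decay difference, 2 members were called by DESeq2 (Hoxa9 and Pbx3) and 1 with the replicate block within genotype (Hoxa9), in place of 0. Of 9207 genes, 207 and 59 were called in these fits. Between genotypes at one time the replicate block changed no call of a member. With coverage alone in the offset at 0 min, 4 members were called lower in place of 0 (Hoxa9 −1.08, Pbx3 −0.79, Myb −1.16, Sox4 −0.94), as were most genes, since the offset then leaves out each library's labelling. The log2 half-life ratio with a log-linear fit was 0.88 for Pbx3 and 0.58 for Sox4. For Pbx3 this fit left out control replicates 1 and 3 of 540 min, whose rates were 0. Except for the offset, the cause of these changes was not tested. Depth limits Meis1, Hoxa5 and Hoxa7, which had 107, 163 and 10 reads in all.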
